A study of Mus musculus with 45 samples.

Results

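T follicular helper (TFH) cells from WT mice were compared with CD4+ T cells of the draining lymph nodes that lacked both TFH surface markers (non-TFH cells). The comparison took 12 of the 45 samples of the series, 6 of TFH cells and 6 of non-TFH cells, chosen by their labelled population and genotype. Both populations came from popliteal lymph nodes on day 6 after footpad immunization with 50 µg OVA and 5 µg LPS in 20 µl of an IFA emulsion. WT mice were S1pr4+/+ littermates in a strain labelled B6.129P2-S1pr4tm1Dgen/J and backcrossed to C57/BL6, male and female, 8 to 12 weeks old. In the sort, TFH cells were TCRβ+ CD4+ PD1+ CXCR5+ and non-TFH cells were TCRβ+ CD4+ PD1- CXCR5-, so the non-TFH samples hold naive and other CD4+ cells together and cells with only PD1 or CXCR5 are in neither group. Side values came from TFH and non-TFH cells of S1PR4-/- mice (12 samples, with the same immunization, day and age). B cells of WT mice, sorted on day 9 after that immunization, gave 6 samples of GC B cells and 5 of B cells outside the germinal center (non-GC B). The methods give 6 WT and 6 S1PR4-/- mice for the sorts but do not say which sample came from which mouse, so p-values measure the spread between these samples. Total expected counts ran from 32797505 to 43668027 in the WT TFH samples and from 30902269 to 37364766 in the WT non-TFH samples.

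TFH cells are the CD4+ T cells that enter B cell follicles and give B cells the contact signals and cytokines needed for germinal centers. Their program depends on the transcriptional repressor BCL6, and they exchange CCR7, which holds T cells in the T cell zone, for CXCR5, which draws them to the follicle. Naive T cells, in contrast, rest, circulate through lymph nodes with the help of CCR7 and depend on IL-7 for survival.

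Levels are given as CPM, counts scaled to a common normalized library size, and each gene is compared only with itself across samples. A gene was called when edgeR's quasi-likelihood test gave an adjusted p under 0.05 with a fold change over 1.5. Of 13481 genes tested, 5824 were called (43.2%), 3079 higher in TFH cells (22.8%) and 2745 lower (20.4%). The median log2 fold change over all tested genes was 0.000254. In 4795 of the called genes the values of the 6 TFH samples and the 6 non-TFH samples did not overlap. Among all 13481 tested genes, called or not, 6530 had no overlap, so separation of the groups was common. The changes above 4-fold were mostly gains, with 1204 genes higher and 438 lower at that size. The first principal component separated the populations and held 83.1% of the variance. In bulk samples, fewer cells of a type and less RNA per cell cannot be told apart, so each change below is one of the sorted population as a whole.

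**Figure D1:**
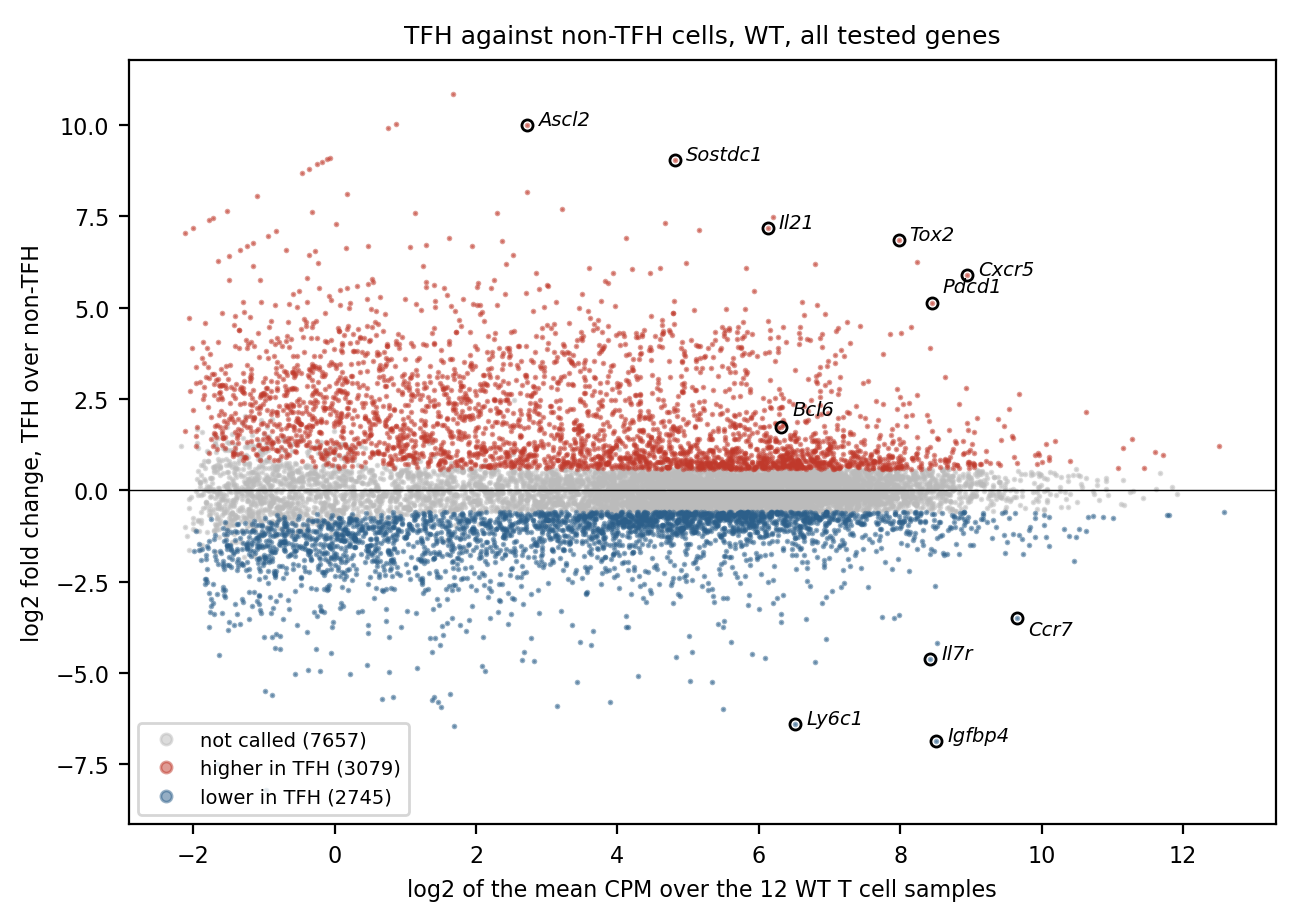
Each point is 1 of 13481 tested genes, by its mean level over the 12 WT samples (x axis, log2 CPM) and its log2 fold change in TFH over non-TFH cells (y axis). Red points are the 3079 genes called higher, blue points the 2745 called lower, gray points the rest, and circles mark 11 genes named in the text.

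The markers of the label were checked next. Cxcr5, the receptor for CXCL13, ran from 853 to 1076 CPM (median 976) in TFH samples and from 8.39 to 21.4 CPM (median 17.8) in non-TFH samples. Pdcd1, which encodes PD1, ran from 591 to 806 CPM (median 666) and from 7.84 to 31.5 CPM (median 16.2). The proteins of both genes defined the gates, so these values check the sort and are not a finding. Bcl6 and Ccr7 were not used in the gates. Bcl6 ran from 102 to 145 CPM (median 125) in TFH samples against from 30.5 to 41.9 CPM (median 37.1) in non-TFH samples (log2 fold change 1.74, standard error 0.10, adjusted p = 1.59e-09). Ccr7 ran from 110.1 to 150.0 CPM (median 129) against from 1284 to 1706 CPM (median 1457) (log2 fold change -3.50, standard error 0.09, adjusted p = 4.80e-12). Neither gene overlapped between the groups, and all 4 markers moved in the direction the label implies. Cd4, also a gate marker, was from 911 to 1154 CPM (median 1095) in TFH samples and from 659 to 859 CPM (median 801) in non-TFH samples, under the fold limit for a call.

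Gains were ranked among genes with a mean of at least 10 CPM over the 12 WT samples and no overlap between groups. Genes with a higher level in B cells than in TFH cells were left out. The largest gain was in Sostdc1, a secreted antagonist of BMP and WNT signals. It ran from 32.1 to 99.9 CPM (median 50.4) in TFH samples and from 0 to 0.220 CPM (median 0.108) in non-TFH samples (log2 fold change 9.03, standard error 0.45, adjusted p = 4.36e-10). All 6 TFH samples were far above every non-TFH sample, but the non-TFH level was near 0, so the size of this fold is uncertain. Ascl2 had a larger log2 fold change (9.99) but a mean over the 12 samples below 10 CPM. Il21, the cytokine that drives germinal center B cells and plasma cells, ran from 109.9 to 166 CPM (median 139) against from 0.503 to 1.81 CPM (median 0.734) (log2 fold change 7.18, standard error 0.24, adjusted p = 1.66e-11). Tox2, a transcription factor of the TFH program, ran from 420.4 to 607 CPM (median 495) against from 0.408 to 8.20 CPM (median 3.91) (log2 fold change 6.86, standard error 0.42, adjusted p = 3.41e-09). Il21 and Tox2 had no overlap, which the ranking required, and non-TFH samples spread widely for Tox2.

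Il1r1, the signalling receptor for IL-1, ran from 185 to 266 CPM (median 211) in TFH samples and from 0.681 to 5.85 CPM (median 2.64) in non-TFH samples (log2 fold change 6.19, standard error 0.36, adjusted p = 1.86e-09). Angptl2, a secreted angiopoietin-like protein, ran from 518 to 708 CPM (median 574) against from 0.980 to 17.7 CPM (median 5.60) (log2 fold change 6.24, standard error 0.58, adjusted p = 2.16e-07). Padi4, an enzyme that converts arginine in histones to citrulline, ran from 111 to 244 CPM (median 129) against from 0.566 to 1.34 CPM (median 0.727) (log2 fold change 7.49, standard error 0.26, adjusted p = 1.66e-11). The groups were apart for all of these by the rule of the ranking, although TFH sample 1 was well above the other TFH samples for Padi4. Cebpa, a transcription factor best known from myeloid cells, ran from 28.3 to 44.8 CPM (median 33.5) against from 0.0272 to 0.629 CPM (median 0.280) (log2 fold change 6.89, standard error 0.32, adjusted p = 2.39e-10), and WT B cells were below 1 CPM for it. Il22, a cytokine that acts on epithelium, ran from 28.0 to 97.9 CPM (median 40.9) against from 0.136 to 1.79 CPM (median 0.618) (log2 fold change 6.08, standard error 0.47, adjusted p = 3.42e-08). Its highest value, in TFH sample 3, stood apart from the other TFH samples. Asb2, a substrate adaptor of a ubiquitin ligase, ran from 79.5 to 129 CPM (median 113) against from 0.327 to 2.51 CPM (median 1.96) (log2 fold change 6.08, standard error 0.30, adjusted p = 4.04e-10). The other genes of this group were H2-Q2, Jdp2, Ryr1, Trpm6, Ica1l and the non-coding transcript 6430562O15Rik, with log2 fold changes of 7.13, 5.94, 5.95, 6.06, 6.07 and 7.33. H2-Q2 belongs to a family of near-identical class I genes, so its reads may be shared with its relatives and its value is uncertain. Jdp2 is a repressor of the AP-1 family, and Ryr1 and Trpm6 encode ion channels.

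Losses were ranked with the same limits on level and overlap. They were listed also where B cells had a higher level than TFH cells, as for St8sia6 (means of 43.8 CPM in GC B and 8.22 CPM in TFH cells). The gene with the largest loss was Igfbp4, a binding protein of insulin-like growth factors that naive CD4+ T cells express. It ran from 2.25 to 12.9 CPM (median 4.81) in TFH samples and from 491 to 1051 CPM (median 685) in non-TFH samples (log2 fold change -6.86, standard error 0.43, adjusted p = 3.59e-09). Ly6c1, a surface protein of the Ly6 family, ran from 1.06 to 3.92 CPM (median 1.83) against from 144 to 215 CPM (median 187) (log2 fold change -6.40, standard error 0.26, adjusted p = 6.92e-11). Il7r, the IL-7 receptor chain that sustains resting T cells, ran from 14.4 to 36.4 CPM (median 28.0) against from 444 to 846 CPM (median 654) (log2 fold change -4.60, standard error 0.24, adjusted p = 5.51e-10). No TFH sample reached the non-TFH range for any of these, which the ranking required. Prf1, the pore-forming protein of killer cells, ran from 3.17 to 6.22 CPM (median 5.39) against from 93.0 to 136 CPM (median 118) (log2 fold change -4.49, standard error 0.17, adjusted p = 3.05e-11), and Ctsw, a protease of cytotoxic lymphocytes, ran from 1.77 to 3.96 CPM (median 2.89) against from 50.6 to 77.0 CPM (median 62.7) (log2 fold change -4.43, standard error 0.18, adjusted p = 8.30e-11). Both were apart between the groups by the same rule. The remaining 10 were Amigo2, Ampd1, Tspan9, Pdlim4, Ggt5, Lypd6b, St8sia6, Tdrp, Dapl1 and Gata1, with log2 fold changes from -5.98 for Amigo2 to -4.23 for Gata1.

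**Figure D2:**
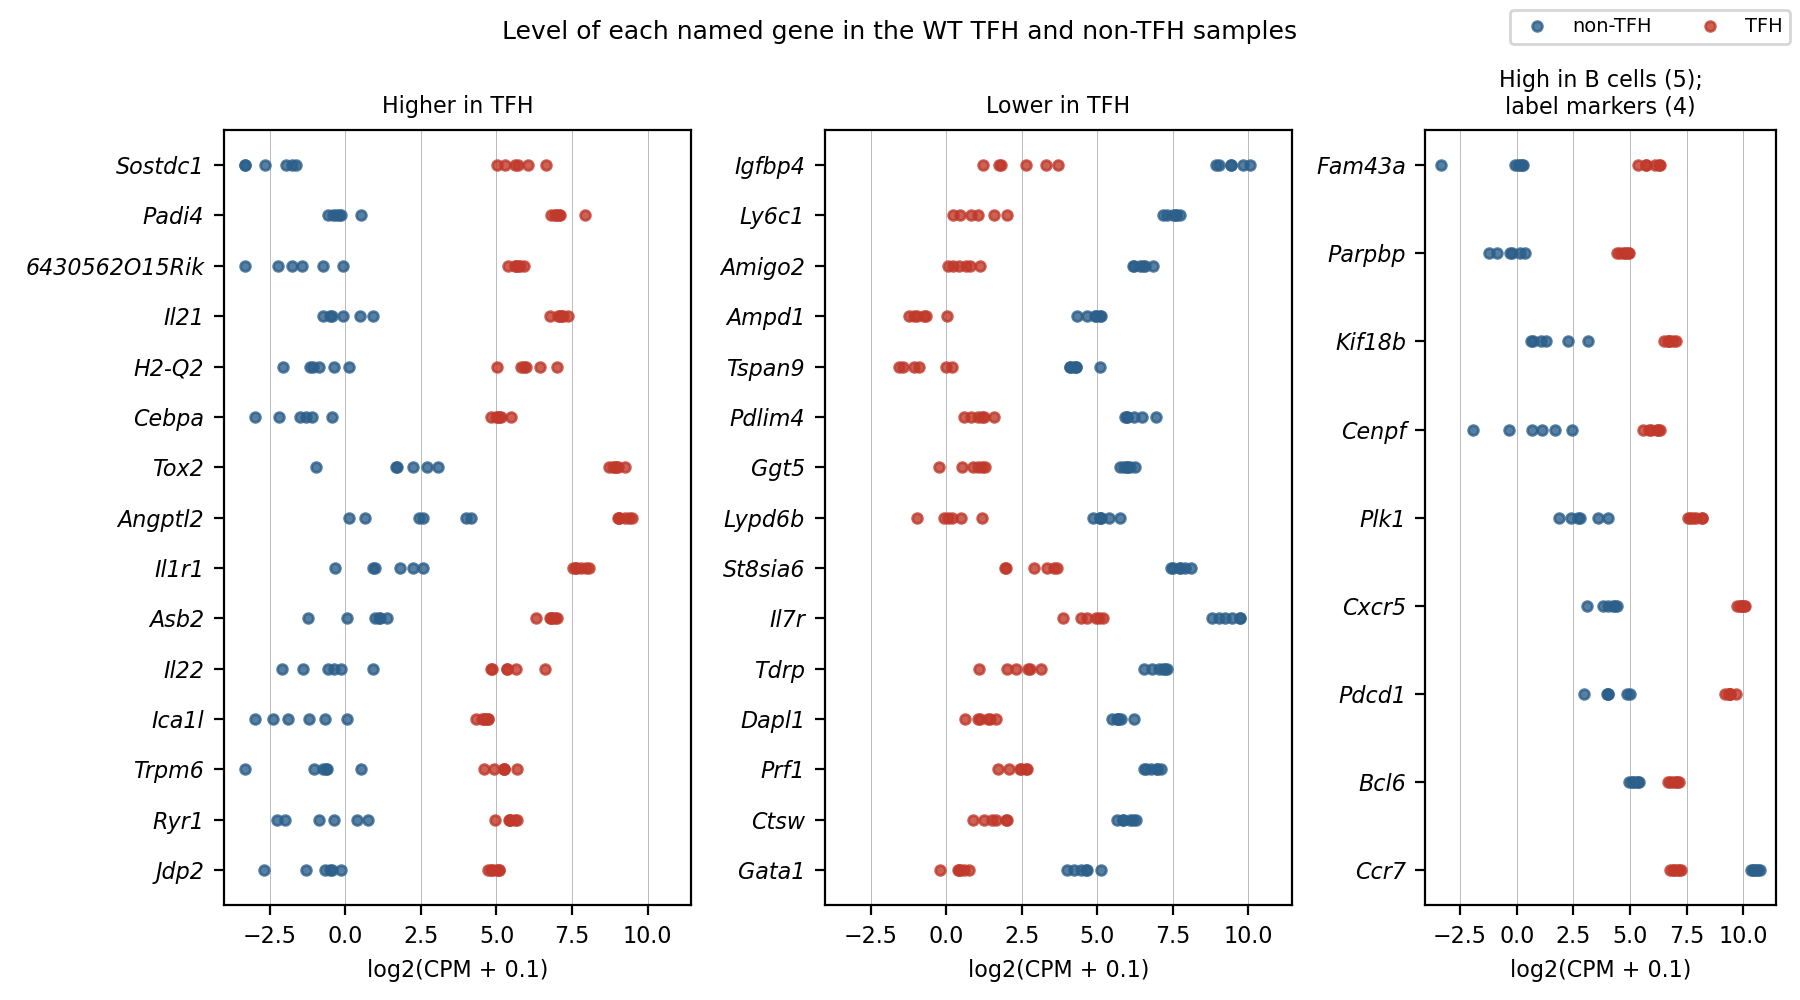
Level of each gene chosen by the fixed rule (x axis, log2 of CPM plus 0.1), with 1 point for each of the 6 TFH (red) and 6 non-TFH (blue) WT samples. The left panel holds the 15 largest gains, the middle panel the 15 largest losses, and the right panel 5 gains whose B cell level exceeded the TFH level, with the 4 label markers. No overlap between the groups was a condition for the gains and losses, and the 4 label markers did not overlap either.

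Genes were then read by function, from lists of known members, whose counts stand beside 22.8% higher and 20.4% lower among all tested genes. Of 16 transcription factors tied to TFH cells, 11 were higher and 1 was lower, with a median log2 fold change of 1.51. The lower count was 2 with total counts as the scale and without TFH sample 2. It was also 2 with B cell and plasma cell marker scores as covariates, scores that themselves differed between the groups. Ascl2, a factor that turns on Cxcr5, ran from 8.02 to 22.0 CPM (median 12.2) in TFH samples, while 5 of 6 non-TFH samples had no count and the other was at 0.0272 CPM. Maf, which supports IL-21 production, ran from 93.5 to 123 CPM (median 97.5) against from 1.66 to 12.6 CPM (median 5.60) (log2 fold change 3.91, standard error 0.33, adjusted p = 9.10e-08). Pou2af1, a coactivator shared with B cells, ran from 99.5 to 148 CPM (median 139.9) against from 5.76 to 11.7 CPM (median 10.5) (log2 fold change 3.79, standard error 0.17, adjusted p = 1.37e-10). These groups did not overlap. Batf and Irf4, partners downstream of the T cell receptor, had log2 fold changes of 2.00 and 2.26. Tcf7, which opens the TFH program early, was from 1617 to 2109.6 CPM (median 1836) in TFH samples and from 1799.5 to 2346 CPM (median 2001) in non-TFH samples, overlapping and not called (adjusted p = 0.17). Its relative Lef1 was lower, from 282 to 381 CPM (median 330.4) against from 987 to 1272 CPM (median 1090.5) (log2 fold change -1.73, standard error 0.08, adjusted p = 1.68e-10).

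Of 10 genes that oppose the TFH fate, 4 were lower and 2 higher, or 1 higher when tested against a fold of 1.5. Bach2, a repressor that keeps T cells resting, ran from 7.81 to 15.7 CPM (median 11.1) in TFH samples against from 132 to 158 CPM (median 146) in non-TFH samples (log2 fold change -3.61, standard error 0.14, adjusted p = 6.29e-11). Foxo1 and Foxp1, which maintain quiescence, had log2 fold changes of -1.09 and -1.65. Prdm1, whose product BLIMP1 opposes BCL6, ran from 13.4 to 33.1 CPM (median 19.7) against from 12.9 to 17.1 CPM (median 14.9), with overlap and a fold change under the limit. Its log2 fold change was 0.52, and it passed the limit without TFH sample 1 (0.62), without TFH sample 2 (0.60), without TFH samples 1, 2 and 3 (0.89, chosen after seeing the data), with B cell and plasma cell marker scores as covariates (1.06) and in S1PR4-/- mice (0.64). Il2ra, the high-affinity IL-2 receptor chain, overlapped, at from 58.7 to 143 CPM (median 73.9) and from 48.3 to 102 CPM (median 92.8) (adjusted p = 0.972). Il2rb, the chain shared with the IL-15 receptor, was higher (log2 fold change 1.36, standard error 0.18, adjusted p = 8.61e-06).

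A list of molecules tied to B cell help moved mostly upward: 11 of 19 were higher and 1 was lower (median log2 fold change 1.20). The list is broad and not limited to signals given to B cells. Its largest gain was Tigit (log2 fold change 5.45), which is counted again among the coinhibitory receptors. Icos, the costimulatory receptor of TFH cells, ran from 658 to 927 CPM (median 742) against from 112 to 204 CPM (median 132) (log2 fold change 2.36, standard error 0.15, adjusted p = 5.12e-09). Sh2d1a, which encodes the adaptor SAP and allows lasting contact with B cells, ran from 201 to 233 CPM (median 213) against from 52.4 to 69.1 CPM (median 61.6) (log2 fold change 1.80, standard error 0.07, adjusted p = 8.00e-11). P2rx7, an ATP receptor that limits TFH numbers, ran from 231 to 293 CPM (median 270.3) against from 9.50 to 26.7 CPM (median 19.8) (log2 fold change 3.82, standard error 0.21, adjusted p = 1.24e-09). Each of these was apart between groups. Cd40lg, the ligand that licenses B cells through CD40, was from 140.0 to 191 CPM (median 178) in TFH samples and from 118 to 150.3 CPM (median 137) in non-TFH samples, with overlap and a fold under the limit. Fasl was the member that was lower (log2 fold change -1.73).

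Of 12 coinhibitory receptors, 10 were higher and none lower (median 1.29 on the log2 scale), a count that includes the gate marker Pdcd1. Tigit ran from 97.1 to 150.3 CPM (median 117) in TFH samples and from 1.17 to 5.08 CPM (median 1.80) in non-TFH samples (log2 fold change 5.45, standard error 0.32, adjusted p = 2.24e-09), and Cd160, a receptor for HVEM, ran from 62.5 to 71.7 CPM (median 65.8) and from 2.12 to 5.53 CPM (median 4.38) (log2 fold change 3.94, standard error 0.17, adjusted p = 1.27e-10). No sample of either group entered the range of the other.

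Of 21 T helper cytokines, 15 had enough counts to be tested, 10 were higher and 1 was lower. A gene that is high in 1 group only passes the filter through that group, so this count is a description. Il4, which directs class switching, ran from 8.48 to 13.2 CPM (median 10.7) against from 0 to 0.236 CPM (median 0.162) (log2 fold change 6.20, standard error 0.37, adjusted p = 2.24e-09). Il17f, a cytokine of the TH17 type, ran from 11.2 to 45.3 CPM (median 29.3) against from 0 to 3.24 CPM (median 1.89) (log2 fold change 4.11, standard error 0.60, adjusted p = 2.49e-05) and was not called in S1PR4-/- mice (1.78), and Lif, of the IL-6 family, ran from 13.6 to 30.4 CPM (median 20.2) against from 0.327 to 1.11 CPM (median 0.675) (log2 fold change 5.00, standard error 0.28, adjusted p = 1.15e-09). None of these overlapped. Tnfsf11, which encodes RANKL, had a log2 fold change of 3.33. Ifng was from 0.240 to 2.08 CPM (median 1.11) in TFH samples and from 0.0629 to 0.953 CPM (median 0.436) in non-TFH samples, and the groups overlapped (adjusted p = 0.0741). It was called without TFH sample 2 (log2 fold change 1.44) and without non-TFH sample 4 (1.51), and in S1PR4-/- mice (3.10). Ltb, a lymphotoxin subunit needed for lymphoid structure, was lower, from 393 to 539 CPM (median 482) against from 1152 to 1652 CPM (median 1249.8) (log2 fold change -1.48, standard error 0.09, adjusted p = 4.68e-09).

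Factors that define the other helper lineages were also read: 8 of 12 were higher and none lower. Hlx ran from 0.351 to 1.22 CPM (median 0.945) against from 0 to 0.0840 CPM (median 0) and Zeb2 from 2.24 to 8.38 CPM (median 4.13) against from 0 to 0.566 CPM (median 0.344), with log2 fold changes of 4.73 and 4.03 over a non-TFH level near 0, so the size of these folds is uncertain. Rora had a log2 fold change of 2.08 and Bhlhe40, a regulator of helper cytokines, of 3.24. Gata3 of TH2 cells was not called, at from 102 to 131 CPM (median 119.7) and from 91.6 to 118 CPM (median 94.9). Tbx21 of TH1 cells was called with overlapping groups, from 4.97 to 10.2 CPM (median 8.87) against from 0.626 to 6.02 CPM (median 4.80) (log2 fold change 1.08, standard error 0.39, adjusted p = 0.0232), and lost the call when tested against a fold of 1.5 (1.08), with marker scores as covariates (1.59), without non-TFH sample 3 (0.94) and without TFH samples 1, 2 and 3 (1.096). Foxp3, the factor of regulatory T cells, was from 89.1 to 196 CPM (median 127) and from 74.2 to 169.8 CPM (median 148), with overlap (adjusted p = 0.715). Among 14 regulatory T cell genes, 5 were higher, led by Tnfrsf9 (log2 fold change 2.12), and 3 lower, led by Gpr83 (-2.71).

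Of 20 genes of naive T cells, 18 were lower and none higher, against 20.4% of all tested genes lower (median log2 fold change -2.47). Pik3ip1, a brake on PI3K, ran from 28.9 to 47.7 CPM (median 38.0) in TFH samples against from 375 to 648 CPM (median 394) in non-TFH samples (log2 fold change -3.51, standard error 0.16, adjusted p = 1.52e-10). The groups were apart. Of 17 adhesion genes, 3 were higher (17.6%) and 6 lower (35.3%). Itga4, the α4 integrin chain used for homing to inflamed tissue, ran from 6.88 to 16.1 CPM (median 9.40) against from 53.5 to 105 CPM (median 85.6) (log2 fold change -2.95, standard error 0.21, adjusted p = 1.43e-08). Itgb1, the β1 chain, ran from 758 to 961 CPM (median 877) against from 139.9 to 306 CPM (median 205) (log2 fold change 1.98, standard error 0.17, adjusted p = 1.05e-07), and Cd44, a marker of activated T cells, had a log2 fold change of 2.30. The integrin chains thus moved in opposite directions, each without overlap.

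Chemokine receptors were higher in 9 of 13 cases and lower in 2, Cxcr5 included. Cxcr3, a receptor of interferon-induced chemokines, ran from 177 to 251 CPM (median 203) against from 10.9 to 32.3 CPM (median 22.1) (log2 fold change 3.19, standard error 0.20, adjusted p = 4.23e-09). Ccr6, Ccr4 and Ccr8 had log2 fold changes of 2.75, 2.76 and 2.47. Of 24 cytokine receptors, 7 were higher (29.2%) and 9 lower (37.5%). Beside Il1r1, the decoy receptor Il1r2 was higher with no overlap (log2 fold change 4.22, standard error 0.37, adjusted p = 1.33e-07), so the signalling and the decoy receptor for IL-1 moved together. Il4ra ran from 90.6 to 114 CPM (median 99.1) against from 557 to 691 CPM (median 613) (log2 fold change -2.61, standard error 0.08, adjusted p = 7.27e-12), and Ifngr2 had a log2 fold change of -2.27. These receptors for IL-4 and interferon-γ were apart between groups, both lower in TFH samples.

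**Figure D3:**
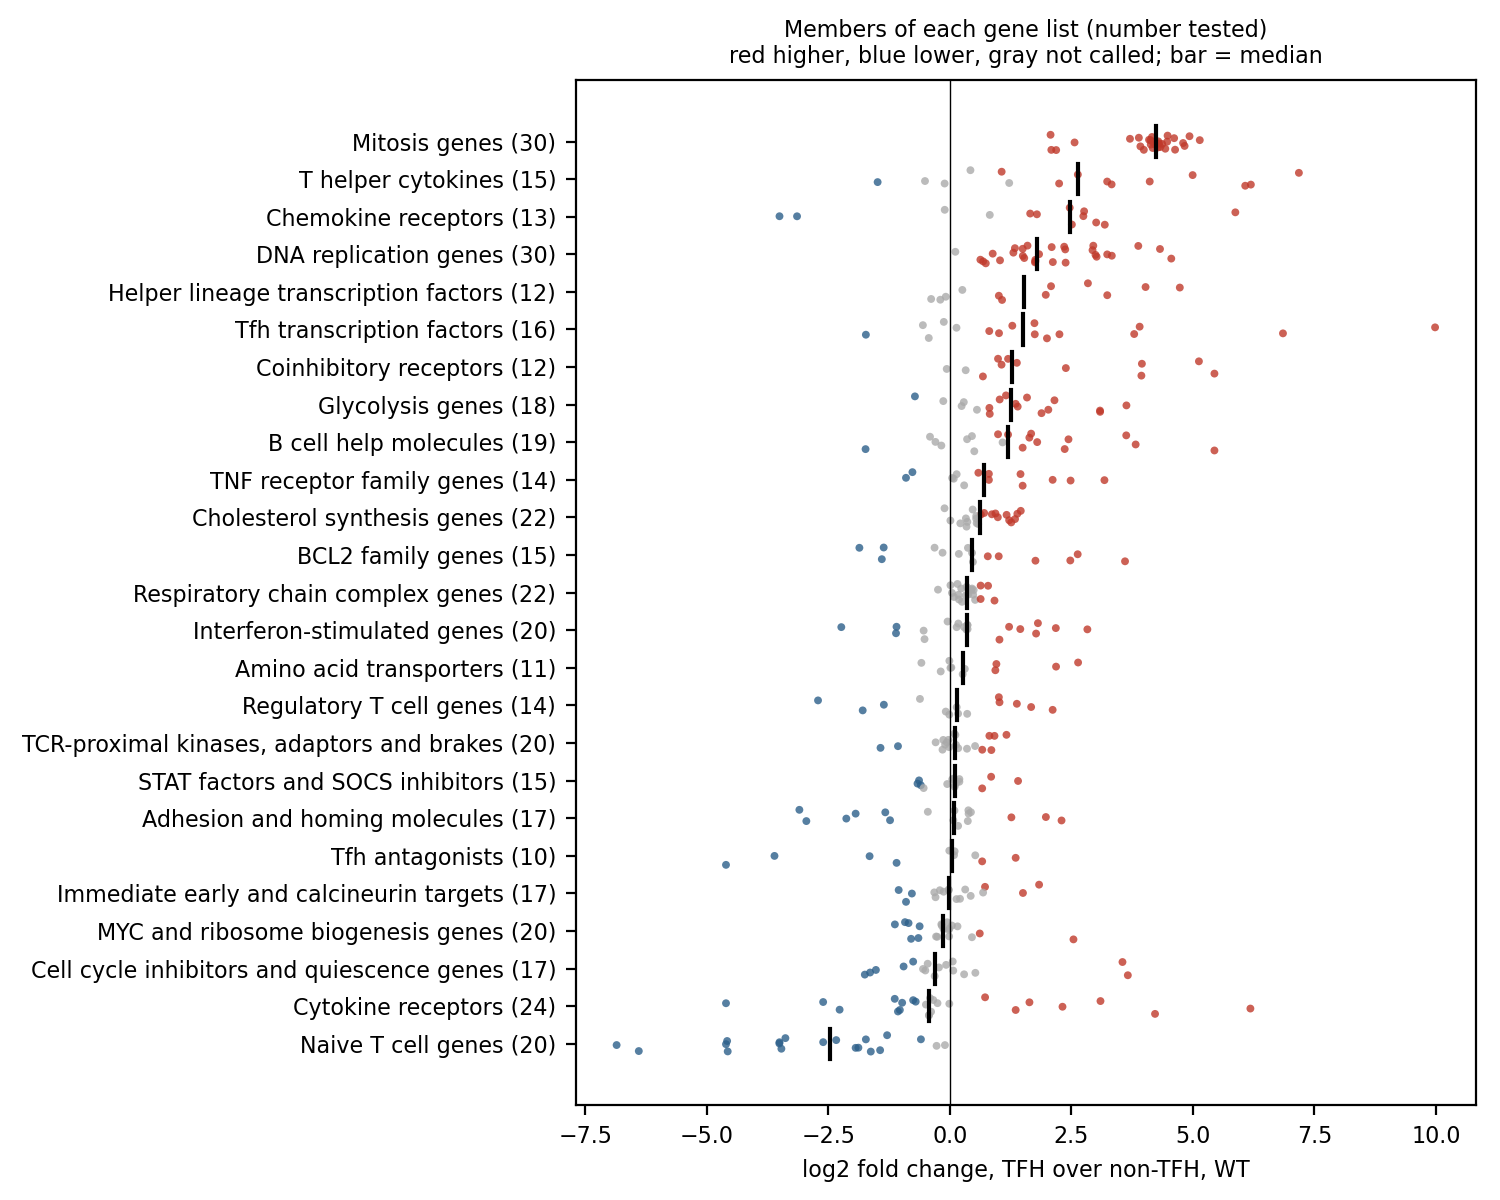
Log2 fold change in TFH over non-TFH cells (x axis) of each tested member of 25 gene lists, with the number tested in brackets. Red points were called higher, blue points lower and gray points not called, and black bars are medians, which run from -2.47 for naive T cell genes to 4.25 for mitosis genes. The rightmost point, Ascl2, is a fitted value against a non-TFH group with a single count.

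The largest coordinated shift was in genes of cell division. All 30 mitosis genes were higher, each without overlap (as in 6530 of all 13481 tested genes), with a median log2 fold change of 4.25. Their summed level ran from 4409 to 6304 CPM (median 4956) in TFH samples and from 228 to 590.3 CPM (median 285) in non-TFH samples. Mki67, the proliferation marker, ran from 192 to 254 CPM (median 229) against from 5.09 to 23.6 CPM (median 8.86) (log2 fold change 4.28, standard error 0.35, adjusted p = 5.63e-08). Of 30 DNA replication genes, 29 were higher (median 1.80 on the log2 scale). Rrm2, the regulated subunit of ribonucleotide reductase, ran from 502 to 835 CPM (median 596) against from 27.2 to 80.5 CPM (median 33.7) (log2 fold change 3.88, standard error 0.28, adjusted p = 1.62e-08). The exception was Cdt1, which loads the replicative helicase and is controlled largely by protein decay, at from 49.3 to 65.6 CPM (median 56.0) and from 41.8 to 58.3 CPM (median 51.3) (adjusted p = 0.269).

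The mitosis genes moved together, so their promoters were read for the letters known to bind cell cycle regulators. RefSeq promoter windows (GRCm38.p6, 250 bases before to 50 after the start of transcription) were found for 26 of the 30 mitosis genes. The CHR element was searched as TTTGAA or TTCGAA and the CCAAT box as CCAAT, on both strands, and the end base of a CCAAT box can also be the start of a CHR. Both were present in 18 of the 26 windows (69.2%), against 7.70% of 27025 promoters of all genes. A CHR was in 76.9% of the mitosis windows and 19.4% of all, and a CCAAT box in 76.9% and 37.9%. In 25 windows of DNA replication genes, the CHR share was 20.0% and the CCAAT share 56.0%. Words of the E2F site (3 words of 8 letters, not printed here), counted in the same search, were in 36.0% of these windows, 3.85% of the mitosis windows, 1.91% of all and 3.72% of the 9673 promoters of tested genes. In the promoters of tested genes, a CHR was in 14.2%, a CCAAT box in 39.4% and both in 6.12%. A match is a description of the letters and was not tested as a binding site. The windows of the 3 mitosis genes with the largest change are shown 5′ to 3′, with CHR and CCAAT letters of either strand in capitals.
Ube2c (chr2:164769679-164769978, plus strand): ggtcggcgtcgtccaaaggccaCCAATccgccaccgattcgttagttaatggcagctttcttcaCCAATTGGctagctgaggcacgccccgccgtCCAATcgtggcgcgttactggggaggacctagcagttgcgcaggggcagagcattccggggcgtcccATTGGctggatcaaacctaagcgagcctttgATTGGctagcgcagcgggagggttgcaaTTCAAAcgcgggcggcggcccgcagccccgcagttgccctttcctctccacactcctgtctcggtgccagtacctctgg
Cenpf (chr1:189688037-189688336, minus strand): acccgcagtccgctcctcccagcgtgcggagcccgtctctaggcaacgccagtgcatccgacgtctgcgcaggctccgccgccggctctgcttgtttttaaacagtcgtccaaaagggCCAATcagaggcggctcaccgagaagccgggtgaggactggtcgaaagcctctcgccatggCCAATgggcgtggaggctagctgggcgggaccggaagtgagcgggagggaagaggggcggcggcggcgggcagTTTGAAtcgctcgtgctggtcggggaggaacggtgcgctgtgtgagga
Plk1 (chr7:122159185-122159484, plus strand): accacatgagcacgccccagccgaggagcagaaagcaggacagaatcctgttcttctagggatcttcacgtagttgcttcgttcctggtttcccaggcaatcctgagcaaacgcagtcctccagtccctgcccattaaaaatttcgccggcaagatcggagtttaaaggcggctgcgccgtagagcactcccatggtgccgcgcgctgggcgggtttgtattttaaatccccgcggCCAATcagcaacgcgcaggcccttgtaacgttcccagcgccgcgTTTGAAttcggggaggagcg

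Ube2c, a ubiquitin-conjugating enzyme that lets mitosis end, ran from 144 to 236 CPM (median 183) in TFH samples and from 1.29 to 11.7 CPM (median 3.74) in non-TFH samples (log2 fold change 5.14, standard error 0.42, adjusted p = 6.21e-08). Cenpf, a kinetochore protein, ran from 47.5 to 81.1 CPM (median 66.7) against from 0.163 to 5.26 CPM (median 1.80) (log2 fold change 4.93, standard error 0.47, adjusted p = 2.95e-07). Plk1, the kinase that drives mitotic entry, ran from 185 to 291 CPM (median 227) against from 3.52 to 16.0 CPM (median 6.54) (log2 fold change 4.83, standard error 0.32, adjusted p = 6.49e-09). In all of them the lowest TFH sample was several times above the highest non-TFH sample. Of 17 inhibitors of the cycle and genes of resting cells, 2 were higher and 5 lower. Of the gains, Cdkn2c, which encodes p18INK4c, ran from 91.5 to 135 CPM (median 118) against from 6.37 to 13.9 CPM (median 8.75) (log2 fold change 3.66, standard error 0.17, adjusted p = 1.68e-10), and Cdkn1a, which encodes p21, had a log2 fold change of 3.55. Btg1 and Txnip, genes of resting cells, were among the lower, with log2 fold changes of -1.52 and -1.75. Myc ran from 52.7 to 98.2 CPM (median 78.4) in TFH samples against from 115 to 236 CPM (median 163) in non-TFH samples (log2 fold change -1.13, standard error 0.16, adjusted p = 2.15e-05), and its call was lost with marker scores as covariates (-0.95). Of 20 MYC and ribosome biogenesis genes, 2 were higher, 6 were lower and 12 were not called, beside 43.2% called among all tested genes. The higher count was 1 with total counts as the scale and when tested against a fold of 1.5. It was also 1 without TFH sample 4, without non-TFH sample 6 and without TFH samples 4 and 5. Odc1, the entry enzyme of polyamine synthesis, was the larger of the gains (log2 fold change 2.55, standard error 0.18, adjusted p = 9.88e-09).

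Of 18 glycolysis genes, 13 were higher and 1 was lower (median log2 fold change 1.26). Tpi1, triose phosphate isomerase, ran from 543 to 919 CPM (median 653) in TFH samples against from 68.0 to 112 CPM (median 74.8) in non-TFH samples (log2 fold change 3.09, standard error 0.16, adjusted p = 6.21e-10). Gapdh, often used as a reference gene, ran from 2212 to 3091 CPM (median 2460.2) against from 505 to 659 CPM (median 587) (log2 fold change 2.15, standard error 0.09, adjusted p = 1.25e-10). Slc16a3, which exports lactate, ran from 44.3 to 107 CPM (median 64.1) against from 3.17 to 8.30 CPM (median 5.15) (log2 fold change 3.63, standard error 0.28, adjusted p = 2.79e-08). None of these overlapped. The glucose transporter Slc2a3 was lower (log2 fold change -0.72, standard error 0.07, adjusted p = 2.12e-07), and Slc2a1 was not called. In S1PR4-/- mice Slc2a3 was not called (-0.51), and no glycolysis gene was lower. In cholesterol synthesis, 11 of 22 genes were higher and none lower (median 0.61), led by Pmvk (1.46), Idi1 (1.39) and Cyp51 (1.34). In the respiratory chain, 4 of 22 genes were called higher, a share of 18.2% against 22.8% of all tested genes, and 2 with total counts as the scale. None was called lower, and the median log2 fold change was 0.36. The summed level of the list ran from 6913 to 7940 CPM in TFH samples and from 5392 to 6498 CPM in non-TFH samples, without overlap.

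Of 15 genes of the BCL2 family, which holds protectors from cell death and promoters of it, 6 were higher and 3 lower, beside 22.8% and 20.4% of all tested genes. Bcl2, which protects resting lymphocytes, ran from 42.7 to 68.0 CPM (median 51.9) in TFH samples against from 169 to 249.9 CPM (median 192) in non-TFH samples (log2 fold change -1.86, standard error 0.13, adjusted p = 8.15e-09). Bcl2a1b, of the A1 group induced by activation, ran from 128 to 148 CPM (median 134) against from 16.8 to 26.6 CPM (median 21.2) (log2 fold change 2.63, standard error 0.10, adjusted p = 3.96e-11). The groups were apart for both. The A1 genes are near-identical copies, so reads can be split between them and the value of each is uncertain.

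Signalling lists were read as well. Of 20 T cell receptor-proximal genes, 5 were higher and 2 lower, beside 43.2% called among all genes. Zap70, a kinase bound to the receptor, ran from 489 to 667 CPM (median 531) against from 253 to 326 CPM (median 294) (log2 fold change 0.92, standard error 0.08, adjusted p = 1.05e-07), with no overlap. Of 17 immediate early genes, 3 were higher and 3 lower (17.6% each, below the shares of all tested genes), the largest gain being Egr2, from 99.0 to 159 CPM (median 129.6) against from 29.5 to 43.0 CPM (median 35.7) (log2 fold change 1.84, standard error 0.12, adjusted p = 5.13e-09). Of 20 interferon-stimulated genes, 7 were higher and 3 lower. With marker scores as covariates 3 were higher, and without non-TFH sample 2 or TFH sample 3, 5 were lower. Mx1, an antiviral GTPase, ran from 8.36 to 27.5 CPM (median 11.2) against from 1.37 to 3.61 CPM (median 1.89) (log2 fold change 2.83, standard error 0.34, adjusted p = 3.18e-06), and Oas2 went the other way (log2 fold change -2.23, standard error 0.24, adjusted p = 9.46e-07). STAT and SOCS genes had 3 higher and 3 lower of 15 (20% each, close to the shares of all tested genes), among the higher Socs1, a brake on cytokine signals, with a log2 fold change of 1.40, which was not called in S1PR4-/- mice (0.46), where 1 member was higher. The lower count was 1 without TFH sample 1, non-TFH sample 5 or non-TFH sample 6, 1 with marker scores as covariates, and 0 when tested against a fold of 1.5. TNF receptor family genes had 8 higher and 2 lower of 14 (5 higher with marker scores as covariates, 1 lower when tested against a fold of 1.5), and amino acid transporters 4 higher and none lower of 11, or 2 higher with marker scores as covariates, and 1 lower with total counts as the scale and without some single samples.

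Markers of other cells were read in the same samples. Of 12 B cell markers, 11 were called higher in TFH samples and Cd72 was lower. The count higher was 7 by limma-voom and 6 with the replicate number as a block. It was 3 without TFH samples 1, 2 and 3, 2 with marker scores as covariates and 7 in S1PR4-/- mice. Their summed level ran from 163 to 488 CPM (median 339) in TFH samples and from 66.1 to 107 CPM (median 77.7) in non-TFH samples, so the groups did not overlap. TFH samples 1, 2 and 3 were the highest. The mean was 1.90% of the non-GC B cell level in TFH samples and 0.473% in non-TFH samples. The most abundant marker in TFH samples was Cd22, with 55.2% of the sum, and no marker of the 12 averaged 0. In non-TFH samples it was Cd72, at 53.0 CPM and 6.70% of its non-GC B cell level, while the other 11 were at 0.0866% to 0.332%. The markers did not share 1 ratio to B cells: Ms4a1 was at 0.939% and Cd79b at 1.18% of the non-GC B cell level, while Pax5 was at 4.50% and Cd22 at 7.28%. Cd22, a B cell inhibitory receptor, ran from 108 to 229 CPM (median 186) against from 4.46 to 10.9 CPM (median 9.76) (log2 fold change 4.46, standard error 0.24, adjusted p = 1.05e-09), without overlap. Ms4a1, which encodes CD20, ran from 1.36 to 48.4 CPM (median 18.1) against from 0.419 to 5.92 CPM (median 1.75) and did overlap (log2 fold change 3.01, standard error 0.86, adjusted p = 0.006). Its log2 fold change was 0.47, not called, without TFH samples 1, 2 and 3, and -1.66 with marker scores as covariates, which include Ms4a1. It was also not called by limma-voom (2.75) or with the replicate number as a block (2.64).

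Plasma cell markers behaved differently by gene. Their summed level ran from 1128 to 2569.9 CPM (median 1449.7) in TFH samples and from 1127 to 1512 CPM (median 1227) in non-TFH samples, with overlap, and samples 4 and 5 were the highest of the TFH group. Ighm was the most abundant in both, with 55.6% of the sum in TFH and 95.1% in non-TFH samples, so the non-TFH sum is mostly Ighm. It was lower in TFH samples by less than the fold limit (log2 fold change -0.32). Of 7 tested markers, 6 were higher, and none with marker scores as covariates. Igkc, the κ light chain, ran from 141 to 806 CPM (median 294) against from 6.15 to 67.8 CPM (median 19.3) (log2 fold change 3.74, standard error 0.67, adjusted p = 1.56e-04), and its log2 fold change was -0.078 with marker scores as covariates, which include Igkc. Immunoglobulin genes took up to 0.398% of the counts of a TFH sample, in sample 5. Germinal center B cell markers summed from 23.2 to 32.9 CPM (median 26.7) in TFH samples and from 2.89 to 4.37 CPM (median 3.08) in non-TFH samples, mostly Mef2b in the former. Of 9 MHC class II genes, 7 were higher and H2-Ob was lower. Cd74, the most abundant in TFH samples, ran from 336 to 854 CPM (median 464) against from 29.7 to 164 CPM (median 78.1) (log2 fold change 2.60, standard error 0.37, adjusted p = 2.16e-05). In non-TFH samples H2-Ob was the most abundant (mean 95.4 CPM). Myeloid markers summed from 85.5 to 153 CPM (median 129) against from 65.5 to 110.2 CPM (median 75.2), with overlap, with Cst3, which was not called, the most abundant and S100a9 at 0 in TFH samples. Of the 8 tested, 5 were higher, 2 of them without overlap, and none lower (median log2 fold change 1.69), and 2 were higher with marker scores as covariates. Without TFH sample 4, without non-TFH sample 6 or without TFH samples 4 and 5, 1 was lower. CD8 and NK cell markers summed from 52.5 to 102 CPM (median 72.1) against from 25.7 to 40.2 CPM (median 38.2), mostly Klrb1c in TFH samples, and Klre1 and Ncr1 were close to 0. Of the 5 tested, 2 were higher and 2 lower. The higher were Klrb1c and Gzma. Klrb1c had a median of 51.7 CPM in TFH and 1.73 CPM in non-TFH samples (log2 fold change 4.86). Gzma had medians of 4.50 and 0.740 CPM (log2 fold change 2.77). The lower were Klrd1 (median 1.97 CPM in TFH and 10.6 CPM in non-TFH samples, log2 fold change -2.37) and Cd8b1 (12.2 and 21.6 CPM, -0.81). Whether they go with the losses of Prf1 and Ctsw was not tested. T cell markers summed from 10814 to 13126 CPM (median 11149.6) and from 9694 to 11574 CPM (median 10516), with 1 of 12 called higher. Without non-TFH sample 2, and in S1PR4-/- mice, 2 were called higher.

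These levels move with the TFH group, and their part in the gene lists above was not tested beyond the values that follow. Of the 3079 genes higher in TFH cells, 1468 had a higher mean in WT GC B or non-GC B cells than in TFH cells, among them 28 of the 30 mitosis genes. At the mean share of 1.90%, B cell RNA would make up more than 50% of the TFH level for 119 of the 3079 genes and more than 10% for 272. The share is of the non-GC B cell level and was put on the higher of the 2 B cell levels. With each share on its own B cell level (3.08% for GC B cells), a choice made after seeing the data, the numbers were 149 and 350. The 1.90% rests mostly on Cd22 and is above the 0.939% that Ms4a1 alone gives. Plk1, Kif18b, Cenpf, Parpbp and Fam43a were the 5 largest gains with no overlap and a higher B cell level. This ranking took genes with a mean of at least 10 CPM over the 12 WT samples. In this order, the first arithmetic gave 2.00%, 2.02%, 2.15%, 2.33% and 5.53% of the TFH level. The second arithmetic gave 3.24%, 3.27%, 3.49%, 3.77% and 5.53%. They gave 0.0672% and 0.109% for Tox2 and 3.20% and 5.19% for Bcl6, and Il21 had no count in WT B cells. With TFH samples 1, 2 and 3 left out, also chosen after seeing the data like the next, 3060 genes were higher and 2752 lower. With samples 4 and 5 left out instead, 3030 were higher and 2700 lower. With B cell and plasma cell marker scores as covariates, 2324 were higher and 1914 lower, and 3867 of the 5824 genes (66.4%) were called in both fits. The scores were themselves higher in TFH samples, by 2.55 (B cell) and 2.93 (plasma cell) in mean log2 CPM. They are thus partly confounded with the population, and the cause of a call lost in that fit cannot be told.

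**Figure D4:**
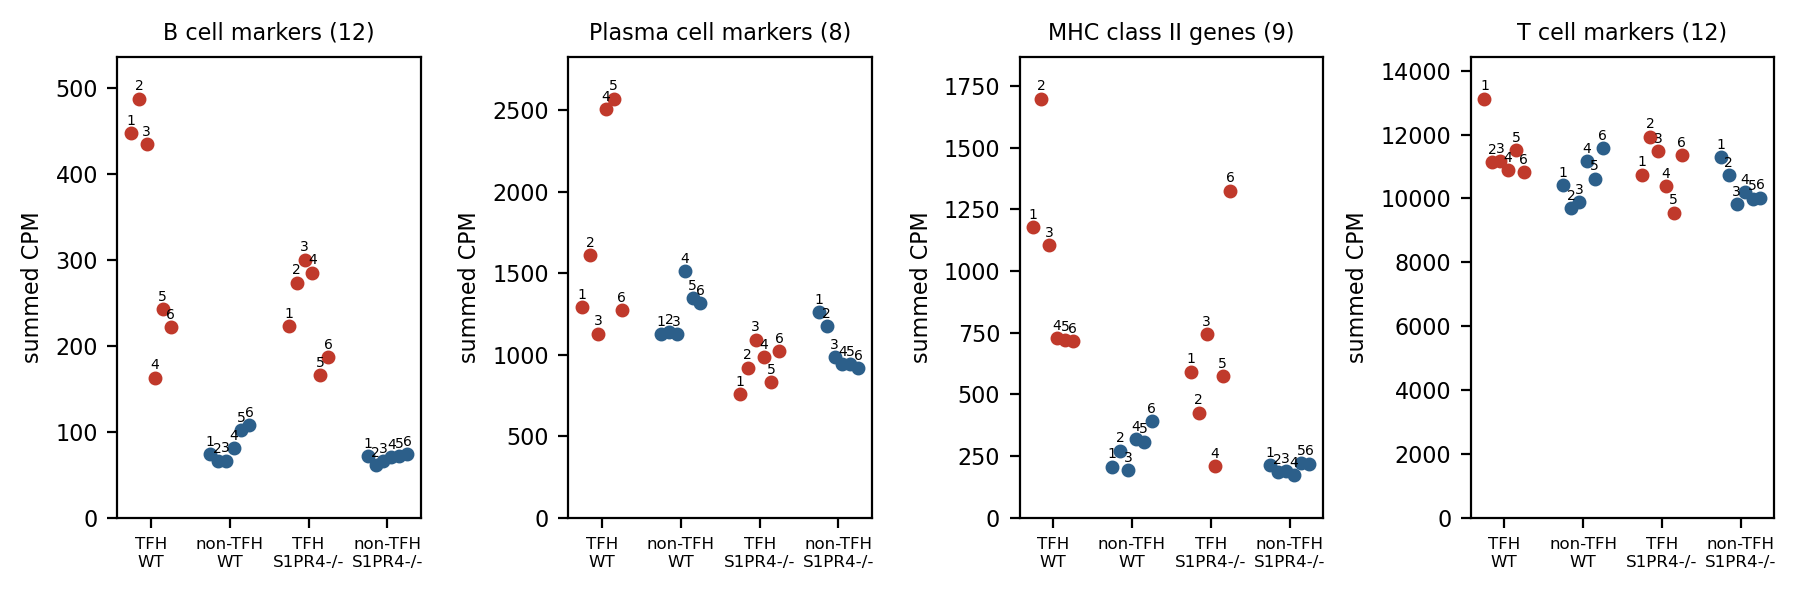
Summed level (y axis, CPM) of 12 B cell markers, 8 plasma cell markers, 9 MHC class II genes and 12 T cell markers in each sample of TFH (red) and non-TFH (blue) cells from WT and S1PR4-/- mice, with the sample number above each point. B cell markers are above the non-TFH range in every TFH sample, and plasma cell markers are highest in WT TFH samples 4 and 5.

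The same contrast was set beside that of S1PR4-/- mice, which shares no sample with it. Of the 5824 genes called in WT mice, 4884 were called in the same direction in S1PR4-/- mice, 83.9% of the WT calls and 84.1% of the 5809 calls there. The gene 5830411N06Rik was called in opposite directions. All 39 genes named by the fixed rule were called the same way in S1PR4-/- mice, with log2 fold changes of 6.65 for Il21, 6.08 for Tox2, 1.89 for Bcl6 and -5.02 for Il7r. B cell markers averaged 1.36% of the non-GC B cell level in S1PR4-/- TFH samples and 0.394% in S1PR4-/- non-TFH samples. No difference of the shift between genotypes passed the test for any of the 39 genes (lowest adjusted p = 0.211, edgeR's quasi-likelihood test of the interaction), while 10 of them had an unadjusted p under 0.05. This does not show that the shifts were equal, and sex was not balanced between the genotypes.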

How the data were processed

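RNA was sequenced from sorted lymph node cells on Illumina libraries. Per the submitters' processing notes and the methods of the study, reads were trimmed with Cutadapt 2.10, aligned with STAR 2.5.3 and counted with RSEM 1.3.0, and the authors deposited expected counts for 55450 genes, not scaled for depth. In these, 8.83% of values were not whole, so all were rounded. Symbols repeated in the table (111) were kept apart, and 27 symbols are written as dates. Genes were filtered with filterByExpr, scaled by TMM and tested with edgeR 4.0.16 in R 4.3.3, with Benjamini-Hochberg adjustment over all tested genes, after a check on simulated data. The pass criteria of that check were set again after edgeR missed the first ones. CPM of B cell samples used the same reference library. Named genes were the 15 largest gains and 15 largest losses with no overlap and a mean of at least 10 CPM. The mean was taken over the 12 WT samples, and only the gains were limited to genes without a higher B cell level. Also named were 5 gains with a higher B cell level, the 4 label markers and chosen list members. These members had the largest changes or levels or were of direct interest, the last chosen after their values were seen. Some list members are not reported here. Members and lists were chosen with earlier results of these data known. Alternatives covered scaling, filters, DESeq2 1.42.0, limma 3.58.1, a replicate block, marker covariates and samples left out.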

Additional observations from a re-analysis of the deposited data

Results flagged for a closer look

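In 8 of 90 sets of 6 WT samples, 1 sample lay far from the other 5, by the gap to its neighbour as a share of the whole range. Chance alone gives such a gap in about 5% of sets. The causes were not tested. Padi4 in TFH sample 1 was at 244 CPM against 111 to 138 in the others (gap 0.801), and in non-TFH sample 1 at 1.34 CPM against 0.566 to 0.807 (0.686). Il22 in TFH sample 3 was at 97.9 CPM against 28.0 to 50.3 (0.682). Ampd1 in TFH sample 4 was at 0.914 CPM against 0.326 to 0.534 (0.647). Tspan9 in non-TFH sample 6 was at 34.1 CPM against 17.0 to 19.5 (0.85). Dapl1 in non-TFH sample 4 was at 74.8 CPM against 44.4 to 55.0 (0.653), and Fam43a there was at 0 against 0.840 to 1.12 CPM (0.751). The summed CD8 and NK cell markers in non-TFH sample 6 were at 25.7 CPM against 35.6 to 40.2 (0.681).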

How the results depend on the processing

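The count of called genes stayed within 1.5 times of 5824 under every alternative but 1. With only genes of at least 10 CPM it was 3066 (1566 higher, 1500 lower), since fewer genes were tested. Leaving out each sample in turn gave 5791 to 5999 genes, 3053 to 3190 higher and 2681 to 2811 lower. Samples with the same number matched in sex, by Xist and Ddx3y, in all 6 WT pairs, where only number 3 was male, and in all 6 S1PR4-/- pairs. There numbers 1, 2, 3 and 6 were male, so sex was not balanced between the genotypes. Whether samples with the same number came from the same mouse is not stated. The correlation of their deviations from the group means ran from 0.0348 to 0.193 over the 6 pairs, and not every sample correlated best with its own number. With the replicate number as a block, 5779 genes were called (3078 higher, 2701 lower). The test of the difference between genotypes passed 2 genes, and 41 with a replicate block within genotype, none of them among the 39 genes of the fixed rule, of which 10 and 12 had an unadjusted p under 0.05, and the cause was not tested. The log2 ratio of B cell markers between groups was 2.01 (1.87 to 2.15 without single samples). For plasma cell markers it was 0.46 (0.31 to 0.55 without single samples), and 2.93 as a mean of log2 CPM, which gives Ighm no more weight than the other markers.

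Of 136 called genes among the 149 followed, 15 lost the call or changed sign under some alternative. With B cell and plasma cell marker scores as covariates, log2 fold changes became negative for Cd79b (-0.16), Ms4a1 (-1.66), Igkc (-0.078), Jchain (-0.53) and Ighg2c (-1.01), which are part of those scores, and for Lyz2 (-0.093). Ms4a1 also lost the call by limma-voom (2.75), with the replicate block (2.64) and with TFH samples 1, 2 and 3 left out (0.47), an alternative added after seeing the data. Lyz2 also lost the call with total counts as the scale, when tested against a fold of 1.5, in the fit of all T cell samples, without any 1 of 8 samples (1.11 to 1.40) and with either set of TFH samples (1, 2 and 3, or 4 and 5) left out. Myc (-0.95), Jun (-1.29), Isg15 (1.37), Mzb1 (0.24) and Tbx21 (1.59) lost the call with the covariates, with a larger change than in the main fit for Jun and Tbx21. The scores differed between the groups, so the cause of a call lost in that fit cannot be told. Jun (-1.05), Stat6 (-0.63) and Tbx21 (1.08) lost it when tested against a fold of 1.5, with the same values as in the main fit. Tbx21 also lost it without non-TFH sample 3 and without TFH samples 1, 2 and 3. In the contrast of S1PR4-/- mice, Il17f (1.78), Isg15 (0.90), Socs1 (0.46), Slc2a3 (-0.51) and Cd79b (0.59) were not called.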
